A study of Drosophila melanogaster with 30 samples.

Results

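The *Npc2* genes of *Drosophila melanogaster* encode small secreted sterol-binding proteins. The members were chosen by gene symbol, *Npc2a* to *Npc2h*, and all 8 were listed among the 17713 features of the count table. In mammals, NPC2 binds unesterified cholesterol in the lumen of late endosomes and lysosomes and hands it to the membrane protein NPC1. Flies cannot make sterols and take them from food, and in flies *Npc2a* and *Npc2b* have overlapping roles in sterol homeostasis and in steroid-hormone production. In flies, *Npc2a*, *Npc2e* and *Npc2h* products also bind bacterial cell-wall components.

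RNA was sequenced from whole third-instar larvae of 3 genotypes that all carried the ubiquitous driver *Tub-GAL4* and the temperature-sensitive repressor *Tub-GAL80TS*. Controls (*Tub-GAL80TS/+ Tub-GAL4/+*) carried no RNAi transgene, *HR3-RNAi* animals also carried *UAS-Hr3-RNAi/+*, and *TOR-RNAi* animals also carried *UAS-Tor-RNAi/+*. Larvae were raised at 18 °C, shifted to 29 °C to start transgene expression, and placed for 10 h on food whose cholesterol content was 1.2 µg/mL. They then spent a further 10 h either on 1.2 µg/mL (low cholesterol) or on 80 µg/mL (refed). Each of the 6 groups had 5 replicates, and each replicate was a pool of 5 larvae, which makes 30 libraries of between 19744564 and 33510753 counts.

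The knockdowns were checked first. *Tor*, listed as *mTor*, was lower in *TOR-RNAi* animals than in controls on both diets, with a log2 fold change of -0.51 on low cholesterol (adjusted p = 0.00283) and -0.79 after refeeding (adjusted p = 1.15e-05). *Hr3* had only 2 to 17 counts per library, and its level in *HR3-RNAi* animals did not differ detectably from controls (adjusted p = 0.916 on low cholesterol and 0.545 after refeeding), so the *HR3-RNAi* label could not be checked at this depth. The labels name no batch. Larvae were of unknown sex. *roX1* and *roX2*, which are male-specific dosage-compensation RNAs, summed to between 3.28 and 198 CPM (counts scaled to library size) over the libraries. Because whole animals were sequenced, fewer cells of a type and less RNA per cell cannot be told apart. No marker found in the files for midgut, fat body, muscle, nervous system, cuticle or haemocytes was at 0 throughout a group.

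In the BDGP6 annotation, *Npc2a* (FBgn0031381) lies alone on chromosome 2L from 1988290 to 1988940, as a single exon on the plus strand. The other members lie on 3R, where 2 sets are neighbours. *Npc2e* (FBgn0051410, plus strand, 10053332 to 10054348), *Npc2d* (FBgn0037782, minus strand, 10055356 to 10056083) and *Npc2c* (FBgn0037783, plus strand, 10060252 to 10061136) follow each other with gaps of 1007 and 4168 bp. *Npc2g* (FBgn0039800, 30744605 to 30745263) and *Npc2h* (FBgn0039801, 30745479 to 30746290), both single-exon genes on the minus strand, are 215 bp apart. *Npc2b* (FBgn0038198, 14089517 to 14092425) and *Npc2f* (FBgn0039154, 24137895 to 24140936), both with 4 exons on the plus strand, stand apart from these. Annotated antisense RNAs overlap 58.5% of the exonic bases of *Npc2c* (*asRNA:CR45205*) and 92.4% of those of *Npc2e* (*asRNA:CR44192*). Whether the counting used strand is not given in the sources used here, so reads from these pairs may not be separated.

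Which members dominate the family's transcript was read from the deposited FPKM, which are scaled for gene length. *Npc2g* was the most abundant member in every group, with between 141 and 276 FPKM per library. *Npc2a* ranged from 87.6 to 179 FPKM and *Npc2f* from 79.7 to 152 FPKM over all 30 libraries, and these 2 genes overlapped each other in every group. *Npc2b* was lower, at 14.9 to 35.5 FPKM, and *Npc2h* lower still, at 1.88 to 7.21 FPKM. *Npc2e* was barely detected, with 0 to 7 counts per library, 34 counts in all and no count in 14 of the libraries. It was the 1 member that did not pass edgeR's filter on low counts, so 7 of the 8 members were tested. *Npc2c*, with at most 8 counts in any low-cholesterol library, passed that filter only through its refed libraries. Its place among the members tested and called therefore depends on the diet difference itself.

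The places of *Npc2c* and *Npc2d* in this order depended on diet. On low cholesterol, *Npc2d* came 4th in each genotype and *Npc2c* shared the last places with *Npc2e*, from which its libraries did not separate. After refeeding, *Npc2c* came 2nd in controls, where its lowest library stood above the highest library of *Npc2a* but not above that of *Npc2f*. In refed *HR3-RNAi* and *TOR-RNAi* animals *Npc2c* came 4th and 3rd, and its libraries overlapped those of *Npc2a* and *Npc2f*. *Npc2d* dropped to 6th place in refed animals of all genotypes, next to *Npc2h*, and overlapped it in refed *HR3-RNAi* animals. The order was the same in all 6 groups when levels were taken as TMM-scaled CPM per kilobase of exon. That scale differs from the FPKM only by a factor of the library. It cannot reorder members within a library, so the agreement is not a separate check.

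As shares of the family's summed FPKM in controls, *Npc2g* contributed 42.6% ± 2.55 on low cholesterol and 41.2% ± 1.95 after refeeding (SD, n = 5). *Npc2d* went from 10.6% ± 2.67 to 1.44% ± 0.232, while *Npc2c* went from 0.0139% ± 0.0174 to 21.4% ± 1.43. The *Npc2c* share after refeeding was 18.5% ± 2.58 with *HR3-RNAi* and 18.7% ± 3.24 with *TOR-RNAi*. The summed FPKM of the family was 485 ± 42.8 on low cholesterol and 629 ± 38.5 after refeeding in controls. The 5 refed controls, at 562 to 654 FPKM, all lay above the 5 low-cholesterol controls, at 419 to 529 FPKM. The sums were 465 ± 27.5 and 542 ± 16.4 FPKM in *HR3-RNAi* animals and 557 ± 64.6 and 666 ± 49.8 FPKM in *TOR-RNAi* animals, without a test. The diets were also apart in *HR3-RNAi* animals, at 437 to 496 FPKM on low cholesterol and 519 to 562 FPKM after refeeding. In *TOR-RNAi* animals they overlapped, at 491 to 647 and 605 to 736 FPKM.

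**Figure D1:**
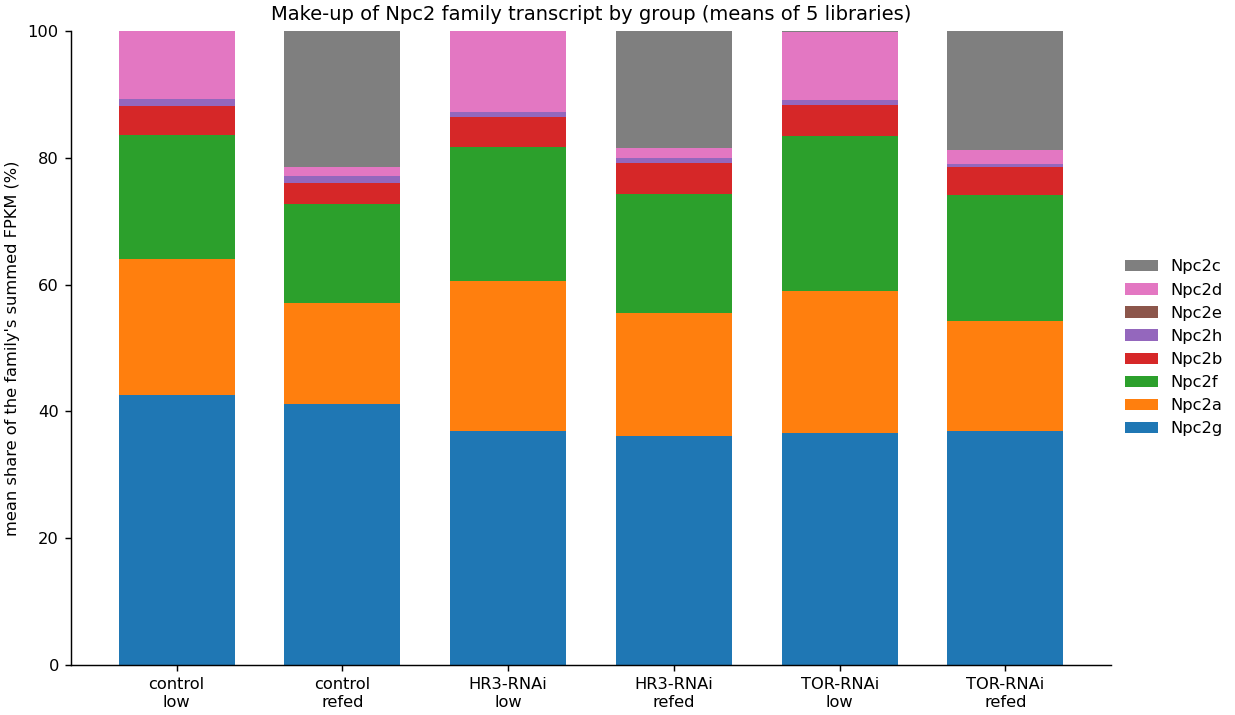
Stacked bars show each member's mean share (percent, 5 libraries per bar) of the family's summed FPKM in the 6 groups on the x axis. *Npc2g* holds the largest share in every bar, and the *Npc2d* segment seen on low cholesterol gives way to an *Npc2c* segment of 18.5% to 21.4% in refed animals.

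How each member responded to cholesterol was tested within each genotype, refed against low cholesterol, with edgeR's quasi-likelihood test and Benjamini-Hochberg adjustment over all genes tested. A gene with an adjusted p under 0.05 was called. In controls 3 of 7 tested members were called, *Npc2c* and *Npc2g* upward and *Npc2d* downward, against 3.83% of the 11374 genes tested. In *HR3-RNAi* animals 2 of 7 were called (3.44% of 11615 genes) and in *TOR-RNAi* animals 2 of 7 (0.562% of 11569 genes), in both cases *Npc2c* upward and *Npc2d* downward. Over all genes tested, the median log2 fold changes were -0.0021, -5.61e-05 and -0.0027 in the same order.

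*Npc2c* went from near absence to abundance. Low-cholesterol controls had 1, 0, 4, 2 and 0 counts in replicates 1 to 5, and refed controls had 2594, 2807, 2416, 2002 and 1639. In *HR3-RNAi* animals the counts were 1, 2, 0, 0 and 0 on low cholesterol and 1967, 1985, 2386, 1925 and 2095 after refeeding. In *TOR-RNAi* animals they were 2, 0, 7, 3 and 8, and then 1939, 1797, 2071, 2315 and 3323. No refed library of any genotype came near a low-cholesterol one.

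Refed controls had 94.0 ± 8.01 CPM of *Npc2c*, refed *HR3-RNAi* animals 71.6 ± 11.2 CPM and refed *TOR-RNAi* animals 89.7 ± 19.996 CPM (SD, n = 5). The fitted log2 fold change of *Npc2c* was 10.89 (SE 0.25, adjusted p = 2.8e-09) in controls, 11.23 (SE 0.27, adjusted p = 9.67e-10) in *HR3-RNAi* animals and 8.99 (SE 0.41, adjusted p = 5.18e-06) in *TOR-RNAi* animals. In each genotype this was the largest rise of any gene tested. Its size rests on a handful of low-cholesterol counts. Pooled over replicates, the ratio of refed to low CPM was 2005 in controls (exact 95% interval 973 to 4989), 2789 with *HR3-RNAi* (954 to 13525) and 525 with *TOR-RNAi* (340 to 860), where the intervals cover counting error only. On the log2(FPKM + 1) scale, tested with limma, the change in controls was 6.99. The overlapping *asRNA:CR45205* had 0 to 5 counts per library.

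*Npc2d*, its neighbour on the opposite strand, moved the other way. Its levels in low-cholesterol controls were 49.97, 28.6, 21.98, 39.9 and 35.9 CPM, and in refed controls 6.62, 7.03, 5.05, 4.88 and 5.82 CPM. In *HR3-RNAi* animals they were 38.4, 49.3, 34.1, 49.1 and 27.9 CPM against 4.35, 3.14, 5.02, 4.57 and 9.30 CPM. In *TOR-RNAi* animals they were 32.7, 39.2, 33.7, 48.7 and 41.0 CPM against 11.7, 12.5, 10.6, 8.96 and 5.07 CPM. The diets did not overlap in any genotype, and the refed *TOR-RNAi* libraries were, with 1 exception, above every refed control.

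The log2 fold change of *Npc2d* was -2.51 in controls (SE 0.22, adjusted p = 6.8e-05), -2.88 with *HR3-RNAi* (SE 0.26, adjusted p = 7.44e-05) and -2.01 with *TOR-RNAi* (SE 0.21, adjusted p = 0.00185). These were 5.71-fold, 7.38-fold and 4.03-fold decreases. Among all genes tested they were the 8th, 9th and 6th largest falls.

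*Npc2g* rose slightly. Its levels were 136, 147, 132, 144 and 136 CPM in low-cholesterol controls and 167, 186, 174, 162 and 152 CPM in refed controls, without overlap. The log2 fold change was 0.34 (SE 0.07, adjusted p = 0.0196), a 1.27-fold increase. The call was lost with each of 6 of the 10 control libraries left out (refed replicates 1, 2 and 3 and low-cholesterol replicates 1, 3 and 5, log2 fold change down to 0.30, adjusted p up to 0.0742) and with the *roX* level as a covariate (log2 fold change 0.25, adjusted p = 0.107). In *HR3-RNAi* animals the log2 fold change was 0.20 (95% interval 0.03 to 0.37, adjusted p = 0.253) and in *TOR-RNAi* animals 0.29 (0.08 to 0.50, adjusted p = 0.383), neither called. With all 30 libraries in 1 fit, however, 3 members were called on refeeding in *TOR-RNAi* animals, *Npc2g* besides *Npc2c* and *Npc2d*.

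*Npc2a*, *Npc2b*, *Npc2f* and *Npc2h* were not called on refeeding in any genotype. In controls their log2 fold changes lay between -0.04 and 0.23, with 95% intervals inside -0.28 and 0.51. In *HR3-RNAi* animals they lay between -0.04 and 0.31, with intervals inside -0.54 and 0.71. In *TOR-RNAi* animals they lay between -0.20 and 0.09, with intervals inside -0.95 and 0.55. *Npc2a*, which binds sterol and is the best-studied fly member, was at 69.0 ± 5.32 CPM in low-cholesterol and 64.4 ± 5.54 CPM in refed controls (SD, n = 5). *Npc2e* was too low for the fit, and pooled counts give only intervals for counting error. It had 11 counts over the low-cholesterol and 5 over the refed controls, a ratio of 0.557 in CPM (exact 95% interval 0.152 to 1.74). In *HR3-RNAi* animals there were 7 and 4 counts, a ratio of 0.462 (0.0991 to 1.82). In *TOR-RNAi* animals there were 7 counts on low cholesterol and none after refeeding, with an interval of 0 to 0.636 that does not reach 1 but leaves out the spread between replicates. Per library, 3 counts, the floor used here, correspond to 0.0895 to 0.152 CPM.

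**Figure D2:**
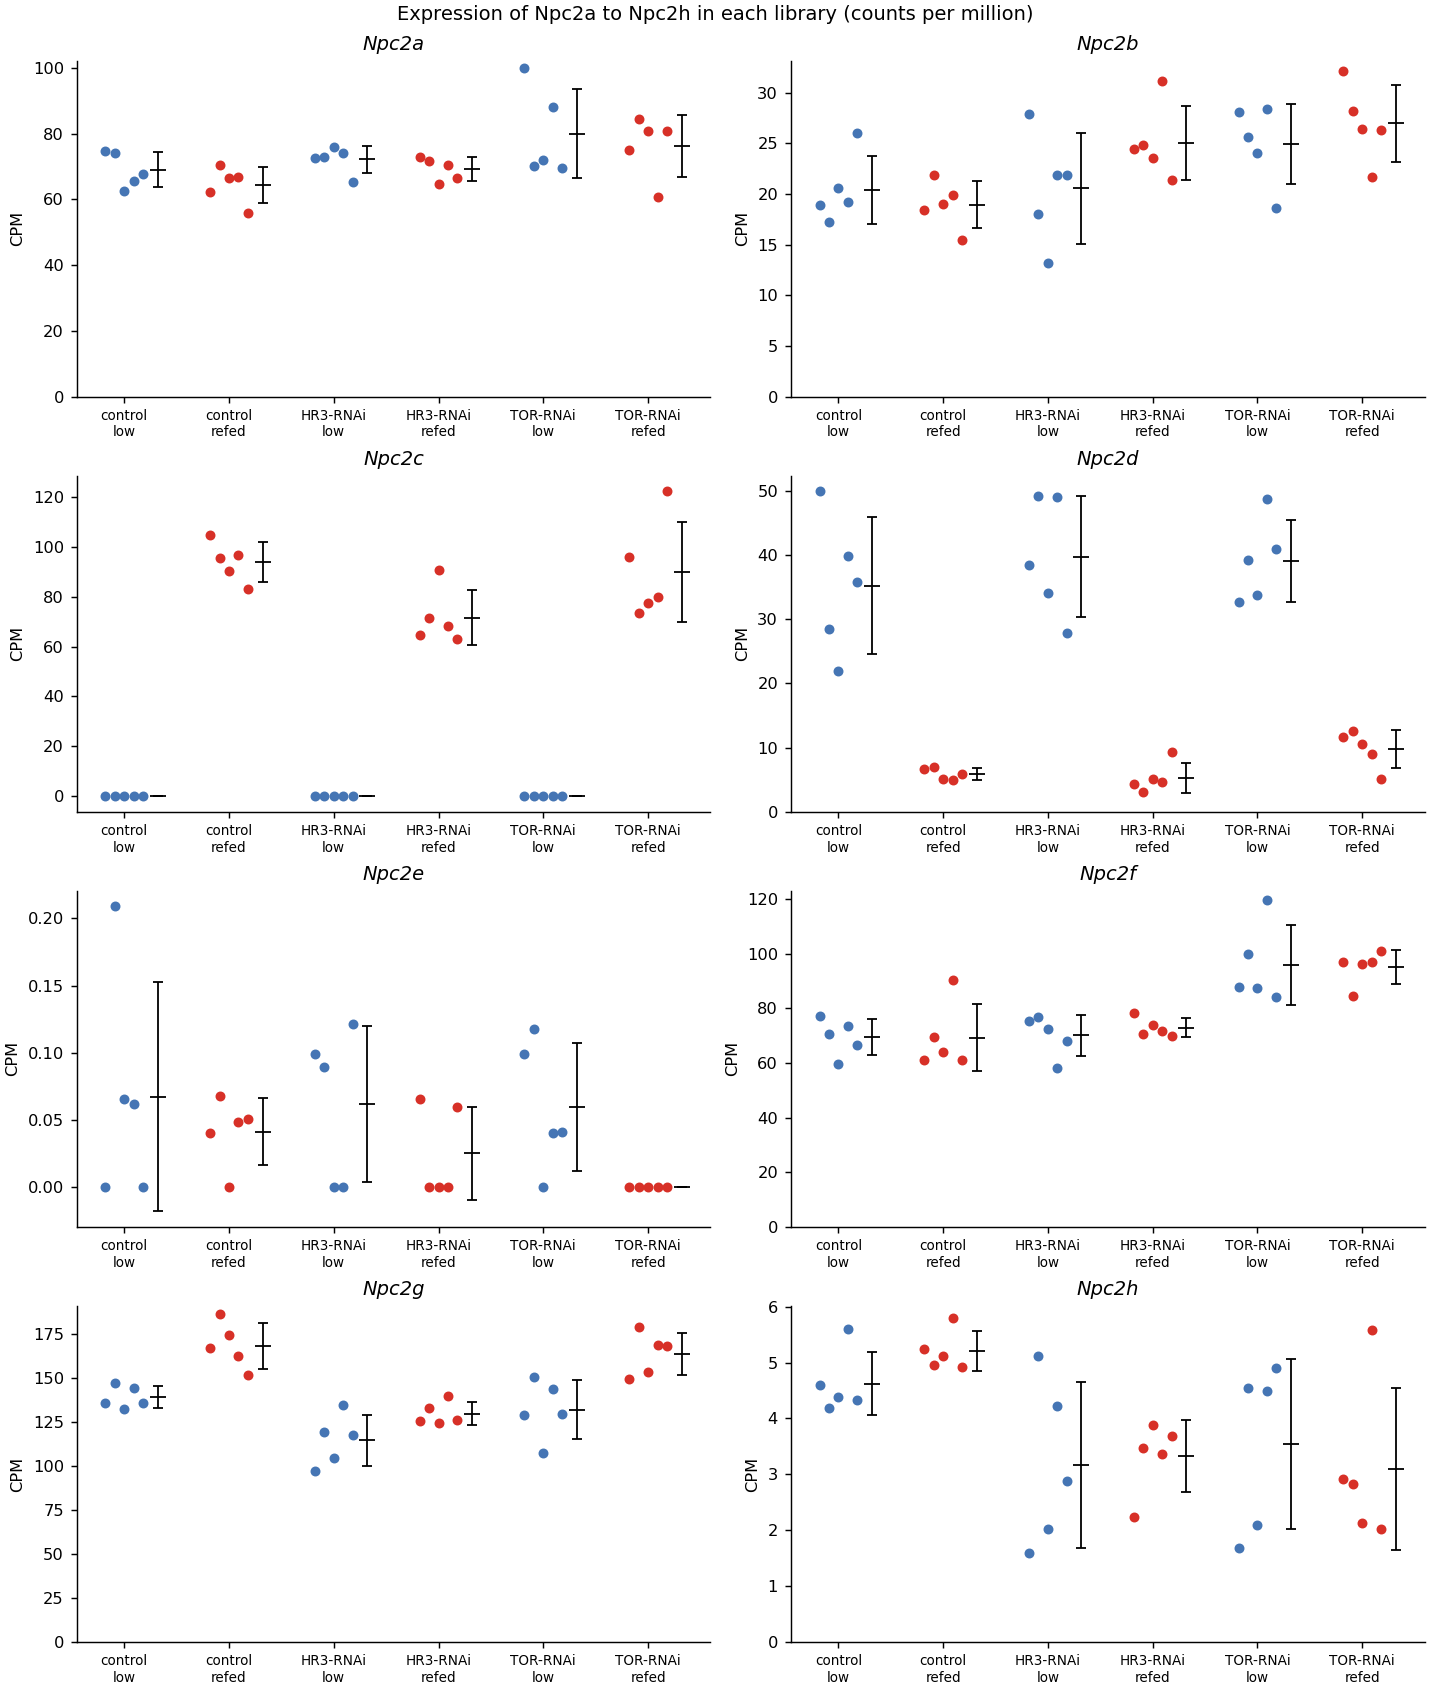
Each panel plots 1 member in CPM on its own y axis, with a point per library in the 6 groups (blue, low cholesterol, and red, refed) and the mean ± SD in black. *Npc2c* and *Npc2d* separate by diet in all 3 genotypes in opposite directions, *Npc2g* separates by diet in controls, and *Npc2e* reaches at most 0.209 CPM.

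**Figure D3:**
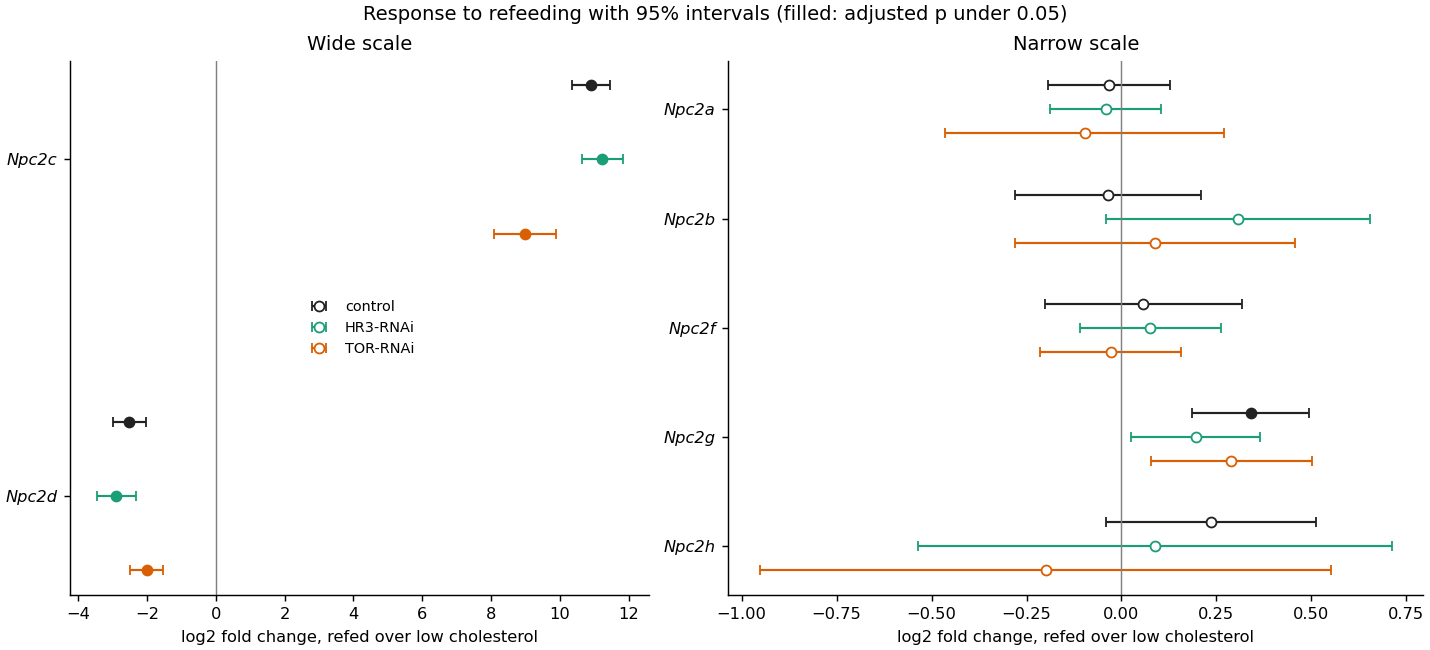
Points show the log2 fold change on refeeding with its 95% interval for the 7 tested members in each genotype, with *Npc2c* and *Npc2d* on a wider x axis than the rest, and filled points for an adjusted p under 0.05. The filled points are *Npc2c* and *Npc2d* in each genotype and *Npc2g* in controls.

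Whether members differed from each other in response was tested on the log2 ratio of 2 members within each library, with 0.5 CPM added to each, refed against low. Exact two-sided permutation tests were run on 28 pairs in each of 3 genotypes, adjusted over all 84 tests. The smallest p that 5 libraries against 5 allow is 0.00794. All 13 pairs that contained *Npc2c* or *Npc2d* passed in every genotype. Both genes were separated by diet in every genotype, so these passes follow largely from the single-gene results and are not separate evidence. Pairs of genes outside the family were not tested for comparison. Of the 15 other pairs of members, 3 passed in controls, 0 with *HR3-RNAi* and 2 with *TOR-RNAi*, each of them with *Npc2g* as a member. The pair of *Npc2g* with *Npc2e* was among them in both controls and *TOR-RNAi* animals. *Npc2e* lay below the added 0.5 CPM in every library, so that ratio largely follows *Npc2g* alone. The 13 also passed with 0.1 or 2 CPM added, but the other pairs depended on the offset. With 0.1 CPM, 2 of them passed in controls and 5 with *TOR-RNAi*, 3 of these without *Npc2g* and all 3 with the barely detected *Npc2e*.

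The pair with the largest difference was *Npc2c* and *Npc2d*. Their log2 ratio went from -5.98 to 3.90 in controls, a shift of 9.88 (SE 0.25, exact permutation p = 0.00794, adjusted p = 0.0155), and the shifts in *HR3-RNAi* and *TOR-RNAi* animals were 9.94 and 9.06. The size of these shifts is set by the offset, since *Npc2c* on low cholesterol lay below it: in controls the shift was 11.92 with 0.1 CPM and 7.75 with 2 CPM added. Against the third gene of this set, *Npc2e*, the shift in controls was 7.49 for *Npc2c* and -2.39 for *Npc2d*, in which *Npc2e* on both diets and *Npc2c* on low cholesterol are held near the offset (9.53 and -2.39 with 0.1 CPM added). The adjacent genes *Npc2g* and *Npc2h* did not differ beyond replicate error, with a shift of 0.11 in controls (SE 0.10, exact permutation p = 0.294, adjusted p = 0.398), 0.04 with *HR3-RNAi* (SE 0.23, adjusted p = 0.881) and 0.47 with *TOR-RNAi* (SE 0.32, adjusted p = 0.271).

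Genes beside the members were looked at after their values had been seen. Of 37 annotated genes within 10 kb of a member, 26 were tested, and 1 was called in controls, 2 with *HR3-RNAi* and 0 with *TOR-RNAi*, all downward. Over all genes tested, 3.83%, 3.44% and 0.562% were called, so the neighbours' share in controls is near the background. The called genes lie beside or across *Npc2e*. *Fancl*, whose human namesake is a ubiquitin ligase of the Fanconi anaemia DNA-repair pathway, decreased by 0.96 (log2) in controls (SE 0.09, adjusted p = 9.97e-05) and by 1.04 in *HR3-RNAi* animals (adjusted p = 0.000604). Its log2 fold change in *TOR-RNAi* animals was -0.29 (adjusted p = 0.807). *asRNA:CR44192*, antisense to *Npc2e*, fell by 0.84 in *HR3-RNAi* animals (adjusted p = 0.0146) and stood at -0.60 in controls on the same scale (adjusted p = 0.105).

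**Figure D4:**
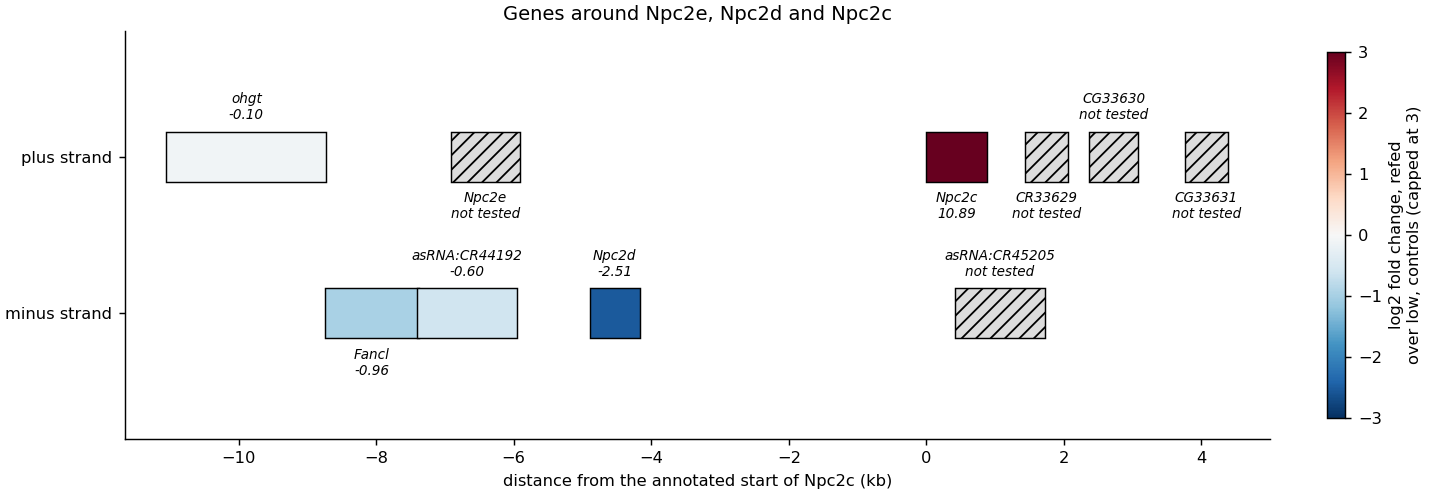
Boxes show annotated genes on each strand by distance in kb from the start of *Npc2c*, coloured by the log2 fold change on refeeding in controls (red up, blue down, capped at 3, hatched where not tested). *Npc2c*, at 10.89, lies between *Npc2d*, at -2.51, and genes too low to be tested, and *Fancl*, at -0.96, lies beyond *Npc2e*.

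Whether knockdown changed these responses was tested as an interaction in 1 fit of all 30 libraries. No member was called, for *HR3-RNAi* or for *TOR-RNAi*, where edgeR called 0% of 12178 genes in each, although 818 and 1111 genes had an unadjusted p under 0.05. DESeq2's Wald test called 36 of 3693 and 108 of 4005 genes, the smaller sets to which it gave an adjusted p. Neither *Npc2c* nor *Npc2g* was among the called genes, and *Npc2d* was given no adjusted p. The *TOR-RNAi* interaction of *Npc2c* was -1.88 on the log2 scale (95% interval -3.40 to -0.35, unadjusted p = 0.0177, adjusted p = 0.426), and -2.01 by DESeq2 (adjusted p = 0.0665, over the 4005 genes only). It rests on low-cholesterol counts of 20 in *TOR-RNAi* animals and 7 in controls. For *Npc2d* it was 0.52 (95% interval -0.18 to 1.21, adjusted p = 0.707), and for *Npc2g* -0.03 (-0.27 to 0.22). The *HR3-RNAi* interactions were 0.34 for *Npc2c* (95% interval -1.60 to 2.28), -0.37 for *Npc2d* (-1.07 to 0.33) and -0.14 for *Npc2g* (-0.38 to 0.11). These intervals leave room for differences of over 2-fold for *Npc2c* and *Npc2d*.

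Levels of the members were next compared between genotypes on the same diet, in that fit. On low cholesterol no member was called in *HR3-RNAi* animals (2.61% of all genes tested). After refeeding 1 of 7 was, *Npc2g* (3.97% of all genes tested). *Npc2g* was at 125, 133, 124, 139 and 126 CPM in refed *HR3-RNAi* animals, all below the 152 to 186 CPM of refed controls. Its log2 fold change was -0.41 (SE 0.08, adjusted p = 0.0035), a 1.33-fold lower level. On low cholesterol it was -0.27 (SE 0.08, adjusted p = 0.0985), with groups that overlapped. Of 8 midgut markers, 1 was higher and 2 were lower in refed *HR3-RNAi* animals, with a summed level of 7013 to 8725 CPM against 7331 to 8695 CPM in refed controls, and their part in the *Npc2g* result was not tested.

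In *TOR-RNAi* animals 1 of 7 members was called on low cholesterol, against 3.71% of all genes, and 3 of 7 after refeeding, against 17.7% of all genes. *Npc2f* was higher on both diets. Low-cholesterol *TOR-RNAi* libraries had 88.0, 100, 87.4, 120 and 84.4 CPM of *Npc2f*, all above the controls at 77.1, 70.7, 59.8, 73.7 and 66.6 CPM. After refeeding they had 97.2, 84.5, 96.2, 97.2 and 101 CPM, against 61.1, 69.7, 64.1, 90.3 and 61.1 CPM in controls, where 1 control library lay inside the *TOR-RNAi* range. The log2 fold changes were 0.48 (SE 0.10, adjusted p = 0.00297) and 0.42 (SE 0.10, adjusted p = 0.00411), and both calls held with each library left out in turn. Of 3 haemocyte markers, *NimC1* and *He* were also higher in *TOR-RNAi* animals on both diets, and *Hml* was not (log2 fold changes -0.27 and -0.28, adjusted p = 0.187 and 0.0668). The summed level of the 3 was 223 to 286 CPM in low-cholesterol controls and 199 to 247 CPM in low-cholesterol *TOR-RNAi* animals, and 196 to 247 CPM and 212 to 235 CPM after refeeding. Their part in the *Npc2f* result was not tested.

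*Npc2b* was at 32.2, 28.2, 26.5, 21.7 and 26.4 CPM in refed *TOR-RNAi* animals and at 18.4, 21.9, 19.0, 19.9 and 15.5 CPM in refed controls, with a log2 fold change of 0.47 (SE 0.16, adjusted p = 0.0377). *Npc2h* was at 2.91, 2.82, 2.13, 5.58 and 2.02 CPM against 5.24, 4.96, 5.12, 5.80 and 4.91 CPM, with a log2 fold change of -0.81 (SE 0.28, adjusted p = 0.0433). In both genes 1 *TOR-RNAi* library, replicate 4, fell inside the range of controls. The *Npc2b* call was lost in 13 and the *Npc2h* call in 8 of 30 fits with 1 library left out, with adjusted p up to 0.128 and 0.115. Both were also lost without the filter on low counts (adjusted p = 0.0512 and 0.0535), and that of *Npc2h* with DESeq2 size factors (adjusted p = 0.0501). For *Npc2h* these were the fits without refed control replicate 1, 3, 4 or 5 or refed *TOR-RNAi* replicate 1, 2, 3 or 5. For *Npc2b* they were those without refed control replicate 1, 3 or 5, refed *TOR-RNAi* replicate 1, 2, 3 or 5, or any of 6 libraries of other groups. *Npc2d*, at a log2 fold change of 0.68 (adjusted p = 0.0557), was not called.

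**Figure D5:**
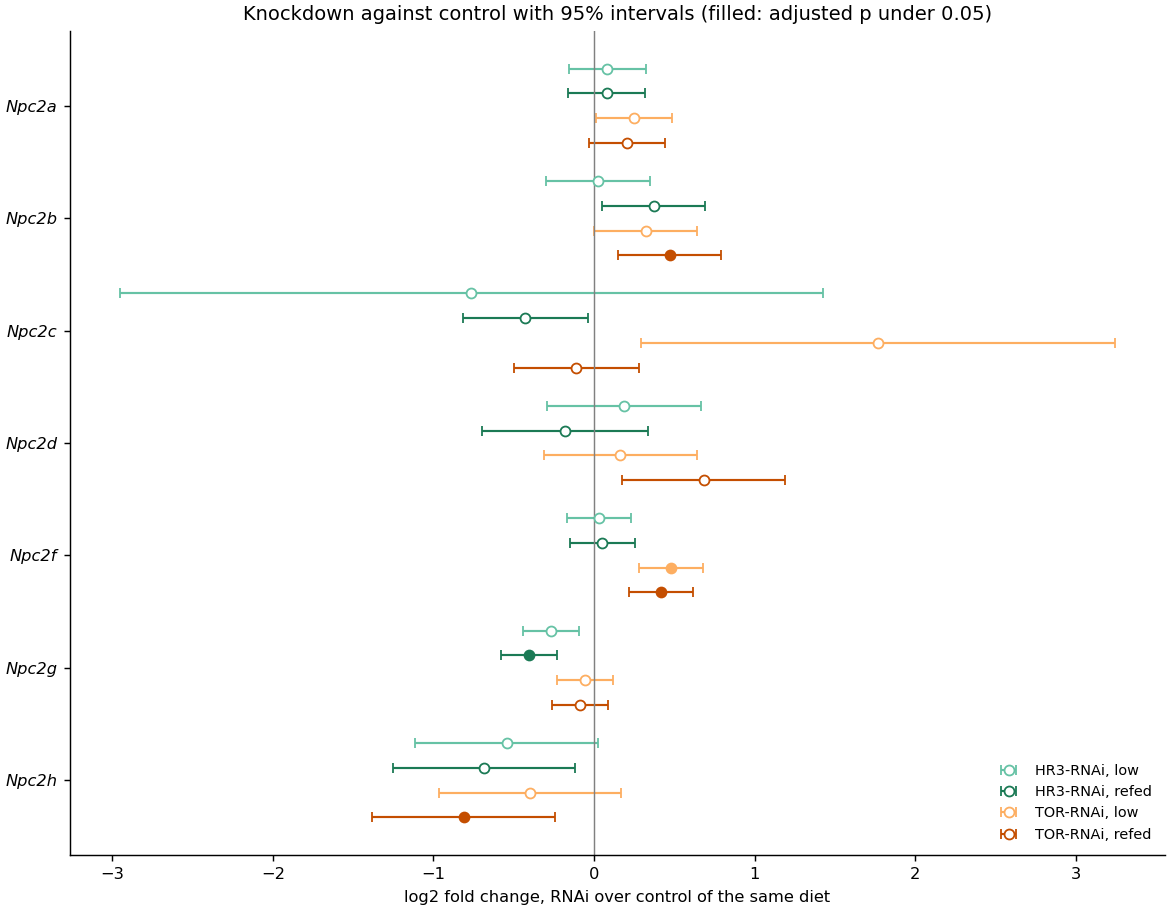
Points show the log2 fold change of each tested member in knockdown animals over controls on the same diet, with 95% intervals, in the order *HR3-RNAi* low and refed and *TOR-RNAi* low and refed, filled for an adjusted p under 0.05. Filled points are *Npc2g* in refed *HR3-RNAi* animals, *Npc2f* in *TOR-RNAi* animals on both diets, and *Npc2b* and *Npc2h* in refed *TOR-RNAi* animals.

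Pools differed in *roX* level, so each member's group-centred log2 CPM was set against that of *roX* over the 30 libraries. *Npc2h* alone among 8 members passed, with Pearson's r = 0.662 (permutation p = 9e-05, adjusted p = 0.00072) and Spearman's rho = 0.686 (permutation p = 0.00035, adjusted p = 0.0028). These p-values were adjusted over the 8 members only, and how many of all genes follow *roX* was not examined. With the 2 libraries of most extreme *roX* level removed, r became 0.641. In refed *TOR-RNAi* animals, replicate 4, at 191 CPM of *roX*, was also the highest in *Npc2h*, and the other 4 had 47.7 to 85.4 CPM of *roX*. With the *roX* level as a covariate, the *TOR-RNAi* difference of *Npc2h* after refeeding was -1.05 on the log2 scale (adjusted p = 0.00252). *Npc2a* had r = -0.485 (adjusted p = 0.237), which fell to -0.0782 without the 2 libraries. For *Npc2c* r was -0.0321 and for *Npc2d* 0.193, and neither passed.

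Other sterol genes were read from a list of 17 genes, of which 16 were matched to the files and tested. In controls 0 of them rose and 6 fell on refeeding, in *HR3-RNAi* animals 1 rose and 6 fell, and in *TOR-RNAi* animals 0 rose and 2 fell, where 3.83%, 3.44% and 0.562% of all genes tested were called. Their median log2 fold changes were -0.01, -0.13 and -0.11. *Npc1b*, the intestinal sterol-uptake partner of the NPC1 family, fell, with log2 fold changes of -2.83, -2.84 and -2.501 for controls, *HR3-RNAi* and *TOR-RNAi* (adjusted p = 8.84e-06, 1.24e-07 and 5.08e-05). *Hr96*, a nuclear receptor that binds cholesterol, fell by 1.496, 1.41 and 1.12 (adjusted p = 1.44e-06, 1.83e-07 and 0.0036). *mag*, a gut lipase, fell by 1.27 in controls and by 0.87 in *HR3-RNAi* animals, and the lipase gene *Lip3* fell by 1.24 and 1.11. Neither was called in *TOR-RNAi* animals, although their means were also lower after refeeding. There *mag* had 1575 to 2495 CPM on low cholesterol and 869 to 1424 CPM after refeeding, and *Lip3* 214 to 422 CPM and 120 to 251 CPM. *Npc1a*, the partner gene that is broadly expressed, was not called in any genotype. Of the midgut markers, 2 of 8 rose in controls, 1 with *HR3-RNAi* and 0 with *TOR-RNAi* on refeeding, and none fell. Their summed level was 6576 to 8599 CPM in low-cholesterol and 7331 to 8695 CPM in refed controls, and their part in the fall of *Npc2d* was not tested. No antimicrobial gene of 14, 13 and 15 tested was called on refeeding in the 3 genotypes by edgeR, although 2, 3 and 14 had an unadjusted p under 0.05. Their median log2 fold changes were 0.35, 0.27 and 3.36. In *TOR-RNAi* animals the summed level of the list was 274 to 511 CPM on low cholesterol and 755 to 4460 CPM after refeeding, without overlap. Between refed *TOR-RNAi* animals and refed controls, 8 of 16 were higher, where 17.7% of all genes tested were called.

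As a description, with no test, each member was matched to the genes whose log2 CPM was most like its own over the 30 libraries, which share diets and genotypes. *Npc2d* was closest to *CG7381* (r = 0.954) and *Gba1a*, a fly glucocerebrosidase gene (r = 0.95), with *Hr96* in rank 3 (r = 0.945) and *Npc1b* in rank 4 (r = 0.938). *CG7381* and *Gba1a* had log2 fold changes on refeeding of -3.22 and -2.15 in controls. *Npc2c* was closest to *Abca3*, an ABC transporter gene (r = 0.972), and *CG2991* (r = 0.966), which had 1.85 and 0.89 in controls. The r between *Npc2c* and *Npc2d* was -0.932. *Npc2a* was closest to the cathepsin gene *CtsB* (r = 0.901) and *CG10026* (r = 0.871). *Npc2b* was closest to *CG11854* (r = 0.846) and the chitinase gene *Cht10* (r = 0.824), and *Npc2f* to *Nadk1a* (r = 0.833) and *CG43110* (r = 0.832). *Npc2g* was closest to *CG14820* (r = 0.802) and *CG18179* (r = 0.782). For *Npc2h* these were *CG7182* (r = 0.877) and *CG7772* (r = 0.775).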

How the data were processed

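The authors deposited 2 tables of the same 30 libraries, whole-number read counts per gene without normalization and FPKM. Per the labels, the submitters' processing notes name CASAVA, HISAT2, StringTie, featureCounts, DESeq2 and edgeR, and their versions, the genome build and the strand setting are not given in the sources used here. All value columns were matched to samples by their labels. Of 17713 features, 17252 had a symbol. The deposited FPKM of a member equalled its counts per kilobase times a factor of the library, so shares of the family were the same from either table. Coordinates and exon lengths come from the BDGP6 annotation given here, and exon lengths stand in for a gene length column, which the count table lacked. The labels and the study's methods differ in the clock times of the temperature and diet shifts, and the labels were followed. No sequences were used.

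Counts were analysed with edgeR 4.0.16 (TMM, filterByExpr, glmQLFit, glmQLFTest) in R 4.3.3. Diets were compared within each genotype over 10 libraries, and interactions and genotypes in 1 fit of all 30. Adjusted p-values are Benjamini-Hochberg over all genes tested. DESeq2 1.42.0, limma 3.58.1 on log2(FPKM + 1) or log2(FPKM + 0.1), other scalings and filters, a replicate block, a *roX* covariate and the omission of each library were alternatives. Exact permutation tests and intervals used Python 3.11.15 with scipy 1.17.1, and permutation tests for correlations drew 100000 resamples within groups. The edgeR diet test was tried on simulated counts modelled on the controls, with the same spread set for every gene. The interaction and genotype fits were not simulated. All members were named, other sterol genes by how many genotypes called them and then by size. The members and lists were chosen with earlier results of these data known. The precision of a value is limited by 5 pools per group, and by counting error for *Npc2c* on low cholesterol and for *Npc2e*.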

Additional observations from a re-analysis of the deposited data

Results flagged for a closer look

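In refed *TOR-RNAi* animals, replicate 4 had 5.58 CPM of *Npc2h*, far from the other 4 libraries at 2.02 to 2.91 CPM, with a gap of 0.75 of the whole range. Of 48 groups of 5 libraries examined, 8 members in 6 groups, this was the only one flagged, and chance flags about 1 in 20 groups. The same library had the highest *roX* level of its group, 191 CPM. Over the 30 libraries *Npc2h* rose with *roX* (Pearson's r = 0.662), but how much of this library's *Npc2h* level goes with *roX* was not tested.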

How the results depend on the processing

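The calls of *Npc2c* and *Npc2d* on refeeding held in all 3 genotypes under every alternative and with each library left out, with log2 fold changes of *Npc2c* in controls from 6.99 to 11.65. Under other settings 387 of 408 values, and without 1 library 816 of 870, kept direction and call or, for counts and shares, rough size. The shares and level orders among them were fixed, or nearly so, because both scales use the same lengths. The cause of changes was not tested. In refed *TOR-RNAi* animals the members called numbered 1 without a filter on low counts (*Npc2f*), and 5 without low-cholesterol *TOR-RNAi* replicate 1 and refed *TOR-RNAi* replicate 4, an omission chosen after seeing the data. In *HR3-RNAi* animals 1 member was called on low cholesterol when only the 2 genotypes were fitted, and 2 after refeeding with *roX* as a covariate. The *TOR-RNAi* interaction of *Npc2g* turned to 0.0353 with the *roX* covariate and to 0.0325 without the 2 libraries, without which the *TOR-RNAi* diet values of *Npc2a* and *Npc2f* turned to 0.158 and 0.0130, none of them called.

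With 1 library left out, the members called ranged from 0 to 1 for *HR3-RNAi* on low cholesterol and from 1 to 4 for refed *TOR-RNAi*. Uncalled log2 values that changed sign on refeeding were those of *Npc2a* (-0.0848 to 0.00275 in controls, -0.159 to 0.0653 in *TOR-RNAi*), *Npc2b* (-0.0905 to 0.0566 and -0.0130 to 0.196), *Npc2f* (-0.0594 to 0.0923 and -0.0833 to 0.0199) and *Npc2h* in *HR3-RNAi* (-0.0793 to 0.309). So did the interactions of *Npc2c* with *HR3-RNAi* (-0.442 to 1.31) and of *Npc2g* with *TOR-RNAi* (-0.107 to 0.0182). *Npc2d* in refed *TOR-RNAi* animals was called without refed *HR3-RNAi* replicate 5 (0.67) or refed *TOR-RNAi* replicate 5 (0.83), by DESeq2 (adjusted p = 0.0322), and in the fit of only the 2 genotypes (adjusted p = 0.0457). *Npc2g* in low-cholesterol *HR3-RNAi* animals was called without replicate 4 of that group (-0.34, adjusted p = 0.0379).

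Replicate numbers did not pair the samples: same-numbered deviations correlated from -0.73 to 0.45 over the 3 genotypes, and 1 of 5 numbers per genotype matched best with itself. With the replicate block, *Npc2g* in controls had 0.34 (adjusted p = 0.0811), genes called went from 436 to 209 in controls and from 65 to 30 in *TOR-RNAi* animals, and no other call of a member changed. DESeq2's Wald test called 738, 705 and 263 genes on refeeding in the 3 genotypes, against 436, 400 and 65. With 1 library left out edgeR's ranged from 289 to 443, from 254 to 419 and from 38 to 82, lowest without refed control replicate 3, refed *HR3-RNAi* replicate 3 and refed *TOR-RNAi* replicate 5. The *TOR-RNAi* count was also 43 and 42 without low-cholesterol *TOR-RNAi* replicates 2 and 5. Between *TOR-RNAi* and control, 301 genes were called on low cholesterol without low-cholesterol control replicate 3, and 1438 after refeeding, against 2158, without refed *TOR-RNAi* replicate 3. *TOR-RNAi* refeeding gave 339 in 1 fit of all libraries, 119 with the *roX* covariate and 360 without the 2 libraries. For genotypes DESeq2 called 486 and 799 (*HR3-RNAi*, low and refed, against 318 and 484) and 685 (*TOR-RNAi*, low, against 452), and fits of 2 genotypes gave 488 and 847 for *HR3-RNAi*. The *TOR-RNAi* interaction, 0 genes by edgeR, gave 22 with the *roX* covariate, 292 without the 2 libraries, and 0 to 71 with 1 library left out, 71 without refed *TOR-RNAi* replicate 4. Few counts limit *Npc2e* in all groups and *Npc2c* on low cholesterol, and reads shared with the overlapping antisense RNAs may not be separated.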
